A study of Mus musculus with 468 samples.

Results

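The genes described here were 7 heat shock genes (Hspa1a, Hspa1b, Hspa8, Hsph1, Hsp90aa1, Dnajb1 and Hspb1) and 2 cold-inducible genes (Cirbp and Rbm3), taken by their symbols out of 23180 genes in the count table. All 9 were among the 18380 genes that passed a filter on low counts (at least 10 counts in at least 50% of libraries). RNA was sequenced from adipose tissue of Diversity Outbred mice, which are genetically distinct offspring of an outbred stock made from several inbred founder strains, and each mouse gave 1 library. All mice were fed a diet rich in fat (45 percent) and sugar, so there was no control diet, no treated group and no temperature challenge. The labels gave a mouse number (DO021 to DO560) and a library number, but neither age, sex, litter, depot nor date, and the deposited totals per library ran from 35.3 to 137.8 with a median of 82.04, in units of 1e+06 counts. The questions were how the 2 groups of genes varied between mice, whether they moved together or against each other, and how they related to mouse number and to Fos, an immediate early gene whose transcript appears within minutes of a stimulus.

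Heat shock proteins are chaperones that hold and refold other proteins, and cells make more of the inducible ones when proteins unfold, chiefly through the transcription factor HSF1, which binds short inverted repeats of GAA and TTC in their promoters. Cirbp and Rbm3 encode small RNA-binding proteins whose transcripts rise when cells are mildly cooled and fall when they are warmed. Adipose tissue can hold brown or beige adipocytes, which make heat.

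Promoter windows from RefSeq (build GRCm38.p6) were at hand for Hspa1a, Hspa1b, Hsph1, Dnajb1, Hspb1 and Cirbp, and those with a match to the HSF1-type repeats are shown. Whether the repeats have a part in the levels was not tested. Windows of 300 bases, from 250 before to 50 after each transcript start, were searched for GAANNTTC and TTCNNGAA, which read the same on both strands, and for the longer GAANNTTCNNGAA, which was searched on both strands and contains both shorter ones. A shorter match was in 15.1% of 32851 such windows of the mouse genome, and the longer in 0.603%. For Hspa1a (chr17:34972157-34972406, minus strand) and its paralog Hspa1b (chr17:34959239-34959488, minus strand), the 250 bases before the start are printed 5′ to 3′, with the match in capitals.

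Hspa1a: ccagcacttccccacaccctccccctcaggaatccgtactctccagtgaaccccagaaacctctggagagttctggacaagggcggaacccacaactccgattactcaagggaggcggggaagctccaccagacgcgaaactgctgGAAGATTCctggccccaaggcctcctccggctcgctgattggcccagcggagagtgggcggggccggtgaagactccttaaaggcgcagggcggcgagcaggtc

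Hspa1b: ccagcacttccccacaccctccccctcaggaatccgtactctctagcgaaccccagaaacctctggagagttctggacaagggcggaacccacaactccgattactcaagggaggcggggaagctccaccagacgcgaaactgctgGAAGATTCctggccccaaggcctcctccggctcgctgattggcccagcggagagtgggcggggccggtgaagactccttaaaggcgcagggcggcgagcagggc

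The windows of these paralogs differed at 4 of 300 bases, 3 of them before the start, and both held the match at the same distance before it. Hspb1 (chr5:135887769-135887868, plus strand) held matches at 117 and 97 bases before its start. Hsph1 held a short match before its start (chr5:149636351-149636380, minus strand) and the longer repeat after its start (chr5:149636280-149636308, minus strand).

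Hspb1: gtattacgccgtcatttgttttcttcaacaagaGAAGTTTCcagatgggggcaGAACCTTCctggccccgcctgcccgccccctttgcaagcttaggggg

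Hsph1, short match: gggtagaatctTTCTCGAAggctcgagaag

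Hsph1, longer repeat: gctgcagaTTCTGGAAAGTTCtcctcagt

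These letters were not in the windows of Dnajb1 and Cirbp. Of the other heat shock pathway genes listed for comparison, 33 of 41 had a window, and Chordc1, Dnajb6, Hspd1 and Hspe1 held the longer repeat. It was in 5 of the 43 windows of these genes, against 0.603% of all windows.

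Before the levels are given, 3 properties of the libraries that touch them need stating. Counts from 9 Y chromosome genes were absent in 48.5% of libraries. They summed to at least 201.9 counts per 1e+06 (CPM) in the other 51.5%, so the libraries fell into 2 sets that the labels do not name. The paper reports its adipose mice by sex, with as many females as libraries without Y counts and as many males as libraries with them. These equal numbers point to a split by sex, though the labels do not give the sex of any library. Contrasts between the sets, and fits with Xist and Y genes, are to be read with this in mind. The main relations below are given over all libraries and within each set. In 2 libraries, those of mice DO153 and DO347, Y chromosome counts were absent and Xist, the X inactivation RNA, was also low (3.64 and 6.05 CPM, against at least 307.8 CPM in the other libraries without Y counts). The 6 adipocyte markers summed to between 8029 and 28324 CPM and none was at 0 in any library, whereas the 6 brown or beige adipocyte markers summed to between 9.34 and 6585 CPM (median 57.7).

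Reads of several members cannot be placed with certainty. Of the 100-base windows of the Hspa1a transcripts, 47.1% also occur in Hspa1b, and all deposited values of this pair were fractional. Hspa1a took a median of 36% of the pair's summed counts (22.5% to 47.2% over libraries), so the split between the paralogs is uncertain. Shared windows also reached 44% for Hspb1 (with the pseudogene Hsp25-ps1), 38% for Hsp90aa1, 28.2% for Hspa8 and 5.36% for Rbm3. Hspa1a also overlaps the gene Gm20481, and Hspa8 overlaps small nucleolar RNA genes. No window of Hsph1, Dnajb1, Cirbp or Fos was shared with another gene.

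The inducible Hsp70 genes had the widest range of the 9. Hspa1a (ENSMUSG00000091971, GRCm38 chromosome 17, 34969190 to 34972156, minus strand), an Hsp70 made on stress, had a lowest level of 3.78 CPM, a median of 22.9 and a highest of 314.9 (mean 40.3 ± 47.6, SD over libraries). Hspa1b (ENSMUSG00000090877, chromosome 17, 34956436 to 34959238, minus strand), its near-identical neighbour, ran from 7.73 through a median of 41.3 to 594.7 CPM (mean 67.6 ± 76.5, SD over libraries). Between the 5th and the 95th percentile of libraries Hspa1a differed 19.1-fold and Hspa1b 15.5-fold, a range like that of Fos (19.3-fold).

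The cochaperones and the small heat shock protein varied less. Hsph1 (ENSMUSG00000029657, chromosome 5, 149614287 to 149636376, minus strand), an Hsp110 that recharges Hsp70 with ATP, ran from 37.7 through 127.0 to 814.0 CPM (mean 150.9 ± 88.96, SD over libraries). Dnajb1 (ENSMUSG00000005483, chromosome 8, 83608193 to 83612653, plus strand), an Hsp40 that hands clients to Hsp70, ran from 22.1 through 43.6 to 225.7 CPM (mean 50.1 ± 22.8, SD over libraries). Hspb1 (ENSMUSG00000004951, chromosome 5, 135887919 to 135889563, plus strand), a small heat shock protein that keeps unfolded proteins soluble, ran from 39.6 through 107.8 to 415.9 CPM (mean 118.7 ± 49.9, SD over libraries). Their folds between the 5th and 95th percentiles were 4.63, 3.32 and 3.74.

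The abundant chaperones were the steadiest of the heat shock members. Hspa8 (ENSMUSG00000015656, chromosome 9, 40800984 to 40810087, plus strand), the constitutive Hsp70, ran from 703 through 1369 to 3107 CPM (mean 1434.7 ± 366.3, SD over libraries). Hsp90aa1 (ENSMUSG00000021270, chromosome 12, 110690605 to 110702728, minus strand), the inducible cytosolic Hsp90, ran from 215.6 through 456.5 to 1574 CPM (SD over libraries 160.4). The corresponding folds were 2.19 and 2.55.

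Both cold-inducible genes had a narrower range than the inducible Hsp70 genes. Cirbp (ENSMUSG00000045193, chromosome 10, 80165985 to 80172786, plus strand) ran from 6.67 through 15.9 to 44.9 CPM (mean 17.0 ± 5.29, SD over libraries). Rbm3 (ENSMUSG00000031167, chromosome X, 8138975 to 8145880, minus strand) ran from 40.6 through 92.1 to 173.8 CPM (mean 92.9 ± 24.8, SD over libraries), and it overlaps the antisense gene Rbm3os. Their folds were 2.68 and 2.49. The SD of log2 CPM over libraries was 1.34 for Hspa1a, 1.23 for Hspa1b, 0.70 for Hsph1, 0.56 for Hspb1, 0.53 for Dnajb1, 0.42 for Hsp90aa1 and Cirbp, 0.40 for Rbm3 and 0.35 for Hspa8. For comparison, only the 9511 genes whose mean reached 10 CPM were used. All 9 lay above the median of these, at 0.27, and Hspa1a lay above 97.7% of them.

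**Figure D1:**
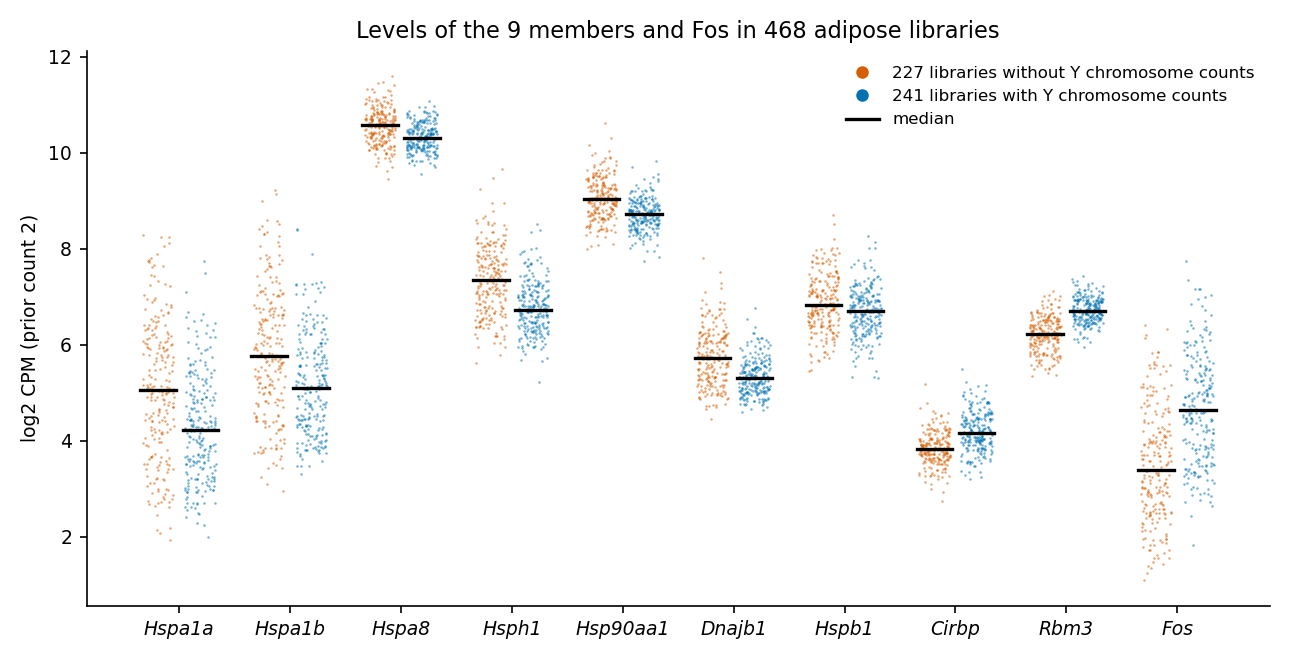
Levels of the 9 genes and Fos, each point 1 library on the log2 CPM scale (vertical axis), with libraries lacking and libraries having Y chromosome counts drawn side by side and a black line at each median. Hspa1a, Hspa1b and Fos spread over the widest range, Hspa8 sits highest, and Cirbp and Rbm3 are lower in the set without Y counts.

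Per kilobase of exon, the median levels fell in the order Hspa8 (318.3 CPM per kilobase), Hsp90aa1 (116.1), Hspb1 (104.6), Rbm3 (19.6), Hsph1 (17.5), Hspa1b (14.7), Dnajb1 (13.6), Hspa1a (7.73) and Cirbp (6.09). The length of a gene was that of all its annotated exons, merged over transcripts. It ran from 1031 bases for Hspb1 to 7266 for Hsph1, with 4698 for Rbm3. Which transcripts were present was not measured, so the order depends in part on the annotation. Hspa8 exceeded Hsp90aa1 in 100% of libraries, by 1.43 ± 0.28 on the log2 scale (mean difference, SD), and Hspb1 exceeded Rbm3 in 100%, by 2.48 ± 0.80. The other neighbours differed by less than their spread over libraries. Hsp90aa1 was above Hspb1 in 65.2% of libraries (0.17 ± 0.38), Rbm3 above Hsph1 in 54.7% (0.06 ± 0.96), and Hspa1a above Cirbp in 56.8% (0.45 ± 1.56).

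The 2 sets of libraries had different medians for most members. Without Y counts, Hspa1a had a median of 33.5 CPM against 18.8 with them, Hspa1b 54.6 against 34.2 and Hsph1 163.5 against 106.5. Hsp90aa1 had 528.2 against 421.5 CPM, Hspa8 1528 against 1276, Dnajb1 53.1 against 39.7 and Hspb1 113.1 against 104.5. Cirbp went the other way, with 14.1 against 18.0 CPM, and so did Rbm3 with 75.3 against 104.9 and Fos with 10.5 against 24.96. The sets overlapped in every one of these genes. Hspa1a, for example, ran from 6.76 to 199.5 CPM between the 5th and 95th percentiles without Y counts and from 6.49 to 77.9 with them.

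Single libraries, picked because a member was at its highest or lowest there, give examples. Mouse DO153 was among those with neither Y counts nor high Xist. In the library of mouse DO153, Hspa1a (314.9 CPM), Hspa1b (594.7) and Hspb1 (415.9) were at their highest, and Hsph1 was 709.7, Hsp90aa1 1264 and Dnajb1 184.3 CPM, beside a Cirbp of 10.02 and a Rbm3 of 64.7. In mouse DO478, Hspa8 (3107 CPM), Hsph1 (814.0), Hsp90aa1 (1574) and Dnajb1 (225.7) were at their highest and Cirbp at its lowest (6.67), with Rbm3 at 49.04. At the other end, mouse DO512 had the lowest Hsph1 (37.7 CPM) and Hsp90aa1 (215.6), with Cirbp at 37.6 and Rbm3 at 130.4. Low heat shock genes did not always go with high cold-inducible ones. Mouse DO150 had the lowest Hspa1a (3.78 CPM), Hspa1b (7.73) and Dnajb1 (22.1), with Cirbp at 18.4 and Rbm3 at 42.3. Mouse DO160 had the lowest Rbm3 (40.6 CPM), yet every heat shock gene but Hspa8 (1429 CPM) was below its median there. Fos was 5.59 CPM in mouse DO153 and 16.96 in mouse DO478, on either side of its median of 16.3.

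The 7 heat shock genes rose and fell together over the libraries. All 21 pairs had a positive Pearson r of log2 CPM, from 0.614 to 0.979 with a median of 0.748, and every pair had the smallest p that 100000 permutations can give (1e-05, two-sided). With limma over all genes the largest adjusted p among the pairs with Hspa1a was 3.46e-47, but calls were common, and 66.2% of all genes passed with Hspa1a and 71.2% with Hsph1 as covariate. The size of r set the members apart more than the call did. The lowest pair, Hspa1a with Hspb1, had r = 0.614 (rho 0.592), and the pair Hspa1a with Hspa8 had r = 0.616, higher in absolute value than 99.8% of genes had with Hspa1a. Hsph1 with Dnajb1 reached 0.901 (rho 0.890), and Hsph1 with Hsp90aa1 0.887 (rho 0.867). The highest, Hspa1a with Hspa1b (0.979), joins paralogs that share reads.

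Within the sets the median over the 21 pairs was 0.783 without Y counts (0.623 to 0.982) and 0.664 with them (0.499 to 0.971). Hspa1b with Dnajb1, which have no 100-base window in common, had r = 0.899 over all libraries, 0.938 without and 0.817 with Y counts. Leaving out the 2 libraries farthest from the median of the first gene of each pair gave a median of 0.735, and leaving out mice DO153 and DO347 gave 0.742.

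The heat shock genes ran against both cold-inducible genes. All 14 pairs had a negative r, from -0.637 to -0.328 with a median of -0.465, each at the smallest permutation p (1e-05). The median was -0.406 without Y counts, -0.455 with them and -0.462 without mice DO153 and DO347. Hsph1 with Cirbp had the strongest, r = -0.637 (rho -0.624, limma adjusted p = 4.37e-52 over all genes, where 62.9% of genes passed with Cirbp). It was -0.641 without and -0.5005 with Y counts, and between -0.779 and -0.448 in each of 12 blocks of 39 consecutive mouse numbers. Hsp90aa1 with Cirbp had r = -0.606 (-0.618 without and -0.450 with Y counts), Hspa8 -0.578 (-0.525 and -0.526) and Hspb1 -0.542 (-0.569 and -0.511). The block values were less even for other pairs, from -0.619 to -0.033 for Hspa1a with Cirbp and from -0.589 to 0.039 for Hspa1b.

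For the inducible Hsp70 pair and Dnajb1, the r with Cirbp was nearer to 0 in the set with Y counts. Hspa1a with Cirbp had r = -0.426 over all libraries, -0.513 without Y counts (95% interval -0.603 to -0.410) and -0.190 with them (-0.309 to -0.065). Hspa1b with Cirbp had -0.518 and -0.162 in the same order, and Dnajb1 had -0.533 over all libraries, -0.607 without and -0.279 with Y counts. The difference between the sets was not tested.

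The heat shock genes were also negative with Rbm3. Hsp90aa1 with Rbm3 had r = -0.510, Hsph1 -0.485 and Dnajb1 -0.422. Hsph1 with Rbm3 had -0.222 without and -0.483 with Y counts, and Hspa1a with Rbm3, at -0.350 over all libraries, had -0.169 and -0.314, and here too the difference between the sets was not tested. An r of this size was not rare for Rbm3, since 5% of all genes had an r with Rbm3 below -0.524 and 77.1% passed the test. Cirbp and Rbm3 went with each other at r = 0.466 (95% interval 0.392 to 0.534, rho 0.480, permutation p = 1e-05, limma adjusted p = 3.07e-25), at 0.242 without and 0.331 with Y counts, weaker than any pair of heat shock genes.

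**Figure D2:**
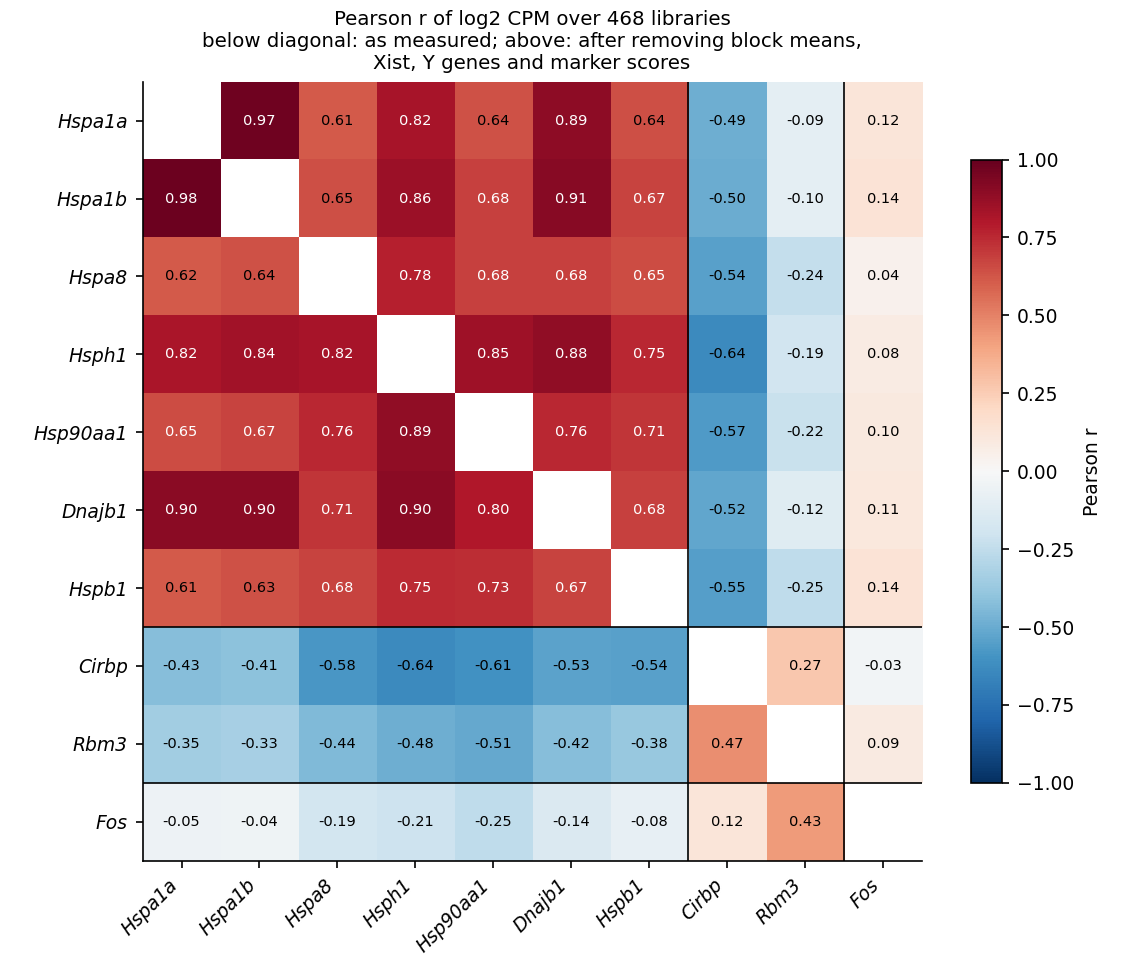
Pearson r of log2 CPM for each pair of the 9 genes and Fos over all libraries, as measured below the diagonal and, above it, after block means of mouse number, Xist, Y chromosome genes and marker scores were removed. The heat shock block stays positive on both sides (0.614 to 0.979 as measured), the rows of Cirbp and Rbm3 are negative against it, and the row of Fos lies between -0.254 and 0.118 as measured except for Rbm3 (0.428).

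**Figure D3:**
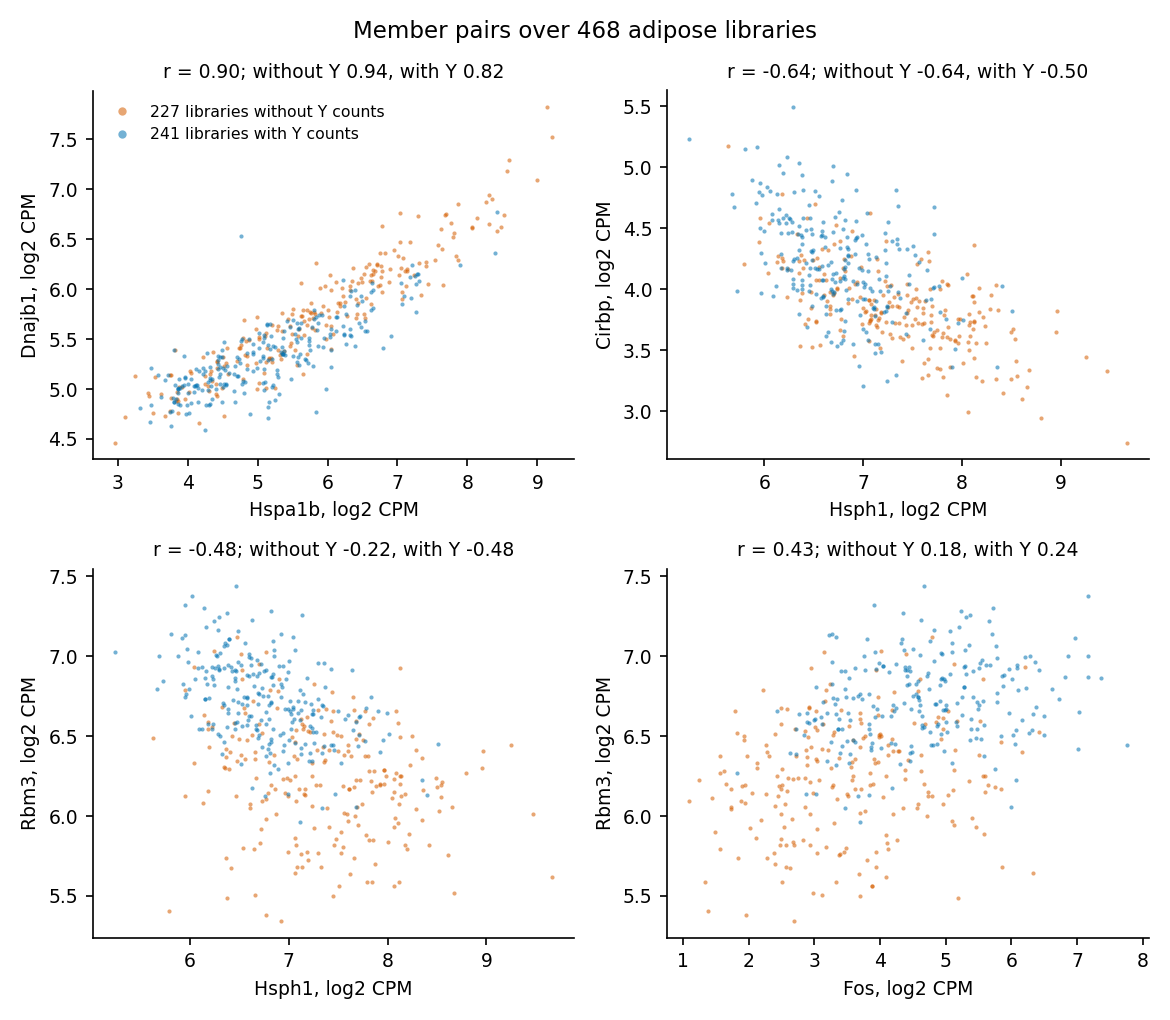
Log2 CPM of 4 gene pairs, each point 1 library, coloured by whether Y chromosome counts were present. Hspa1b and Dnajb1 rise together, Cirbp falls along Hsph1 within both sets, Rbm3 falls along Hsph1 more loosely, and Rbm3 rises along Fos, with the sets at different levels of both.

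Markers of other cells moved with these genes over all libraries. The r values of this paragraph are given over all libraries only, not within the sets with and without Y counts. The summed Y genes themselves had r = 0.622 with Rbm3, 0.430 with Cirbp, -0.414 with Hsph1, -0.402 with Hsp90aa1 and -0.386 with Dnajb1. The part of the difference between the sets in the values below was not tested. The score of the brown or beige adipocyte markers had r = 0.536 with Hsph1, 0.542 with Hsp90aa1, -0.502 with Cirbp and -0.641 with Rbm3, and 1 of its 6 markers was at 0 in at least 1 library. The macrophage score (6 markers, 264.5 to 4877 CPM summed) had r = -0.438 with Dnajb1 and 0.436 with Rbm3. The epithelium score (3 of 4 markers past the filter, each at 0 somewhere, summed 0.0465 to 224.97 CPM) had r = 0.526 with Cirbp and 0.499 with Rbm3. The share of mitochondrially encoded counts had r = 0.533 with Hsph1 and -0.536 with Rbm3, whereas the total count had r between -0.037 and 0.009 with the 9 genes. The TMM scaling factor of the libraries had r = -0.505 with Hsp90aa1, -0.469 with Dnajb1, -0.462 with Hsph1, 0.502 with Cirbp and 0.462 with Rbm3, and its part in the relations was not tested beyond scaling by DESeq2 size factors, which gave a median r of 0.748 for the heat shock pairs and -0.464 for those against the cold-inducible genes. In bulk tissue, fewer cells of a type and less RNA per cell cannot be told apart.

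The relations were therefore measured again with the scores of all 12 marker lists removed. The heat shock pairs kept a median r of 0.715, and Hsph1 with Cirbp kept -0.630. The pairs with Rbm3 became weaker, to -0.196 for Hsph1, -0.110 for Dnajb1 and -0.088 for Hspa1a. Cirbp with Rbm3 came to 0.254. Removing block means of mouse number, Xist and Y chromosome genes as well gave a median of 0.715 for the heat shock pairs (0.613 to 0.974) and -0.372 for the pairs against the cold-inducible genes.

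Along mouse number 3 of the 9 genes rose, Hspa1a, Hspa1b and Rbm3, against a background of 23.9% of all tested genes in either direction (edgeR quasi-likelihood test, adjusted p under 0.05). Hspa1a rose by 0.14 ± 0.05 log2 units per 100 mice (SE, adjusted p = 0.0160), Hspa1b by 0.13 ± 0.04 (adjusted p = 0.0154) and Rbm3 by 0.05 ± 0.01 (adjusted p = 0.00206). Dnajb1 had a slope of 0.04 ± 0.02 (adjusted p = 0.0790) and missed the threshold. Fos rose far more, by 0.45 ± 0.04 log2 units per 100 mice (adjusted p = 6.45e-28). Along library number 0 of 9 were called by edgeR, by DESeq2 and by limma (background 0.267%), while 2 had an unadjusted p under 0.05 in edgeR, Hsp90aa1 (p = 0.0411) and Hsph1 (p = 0.0447).

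The sets were spread unevenly along mouse number, since 0% to 100% of the libraries of a block lacked Y counts. With Xist and the summed Y genes in the model, Hspa1a (0.19, adjusted p = 0.000315), Hspa1b (0.18, adjusted p = 0.000331) and Dnajb1 (0.07, adjusted p = 0.000869) rose along mouse number (background 12.2%) and Rbm3 had 0.02 (adjusted p = 0.336). Within the sets, the r of Hspa1a with mouse number was 0.323 without and 0.178 with Y counts (0.179 over all, permutation p = 0.00012). Cirbp had r = 0.004 over all libraries (permutation p = 0.924), -0.251 without and 0.025 with Y counts.

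Block medians of Hspa1a show the levels behind these slopes. Among libraries without Y counts, the median was 19.4 CPM in mice DO021 to DO061 and 12.7 in DO062 to DO101 (9 libraries). It was 28.2, 32.01 and 35.7 in the next 3 blocks and 42.7 in DO227 to DO265. Later it was 34.4 in DO305 to DO345 and 38.4 in DO346 to DO385. It was highest, at 62.1, in DO386 to DO471 (6 libraries), and 54.5 in DO472 to DO519. With Y counts it was 12.1 CPM in DO062 to DO101, 10.6 in DO102 to DO147 and 12.4 in DO148 to DO186. Next came 21.4 in DO187 to DO226, 16.6 in DO266 to DO304 and 30.7 in DO305 to DO345. The later medians were 19.5 in DO346 to DO385, 28.7 in DO386 to DO471 and 39.2 in DO472 to DO519 (9 libraries). In DO520 to DO560 it was 17.03. A limma F test of the 12 blocks called 8 of 9 members, all but Hspb1 (adjusted p = 0.644), against 60% of all genes. With Xist and the Y genes in the model it called Hspa1a (adjusted p = 7.44e-06), Hspa1b (0.000166) and Dnajb1 (0.00137), against 6.28% of all genes. The blocks held 12.8% of the variance of Hspa1a and 1.99% of that of Hspb1, with 5.58% for the median gene.

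**Figure D4:**
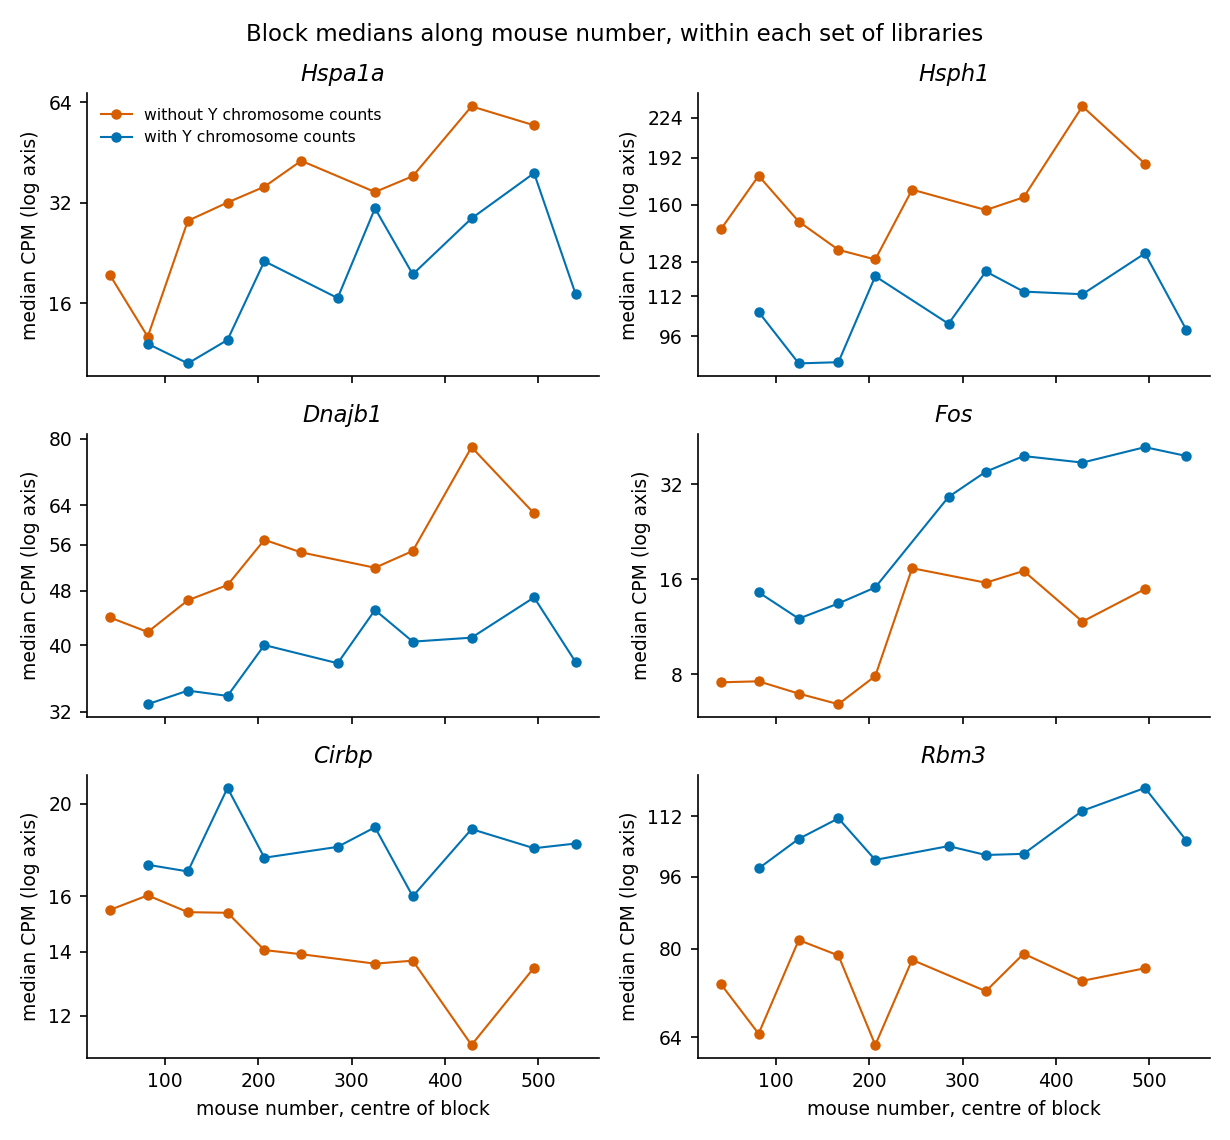
Median CPM (log axis) of 6 genes in 12 blocks of 39 consecutive mouse numbers, drawn at the centre of each block and separately for libraries without and with Y chromosome counts. Hspa1a and Dnajb1 rise unevenly in both sets. Their highest medians are in mice DO386 to DO471 without Y counts (6 libraries) and in DO472 to DO519 with them (9 libraries). Both genes are lower again in the last block of each set. Fos is higher from mouse DO227 on than before it in both sets. Cirbp and Rbm3 vary less and are lower without Y counts, where Cirbp falls along mouse number (r = -0.251).

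Within the 2 sets, Fos levels went weakly with Rbm3 and hardly with the heat shock genes. With marker scores removed this order changed, as given below. Fos (ENSMUSG00000021250, chromosome 12, 85473890 to 85477273, plus strand) ran from 2.11 through 16.3 to 216.2 CPM (mean 25.6 ± 26.2, SD over libraries). In edgeR with log2 CPM of Fos as covariate, 8 of 9 members were called, against 69.1% of all genes. Rbm3 was higher by 0.13 ± 0.01 log2 units per doubling of Fos (SE, adjusted p = 3.24e-21) and Cirbp by 0.04 ± 0.02 (adjusted p = 0.0223). Of the heat shock genes called, Hsph1 had the steepest slope, -0.14 ± 0.03 (adjusted p = 2.81e-07), followed by Hspa1a, Hsp90aa1 and Dnajb1 (-0.13, -0.09 and -0.08), Hspa8 (-0.06) and Hspb1 (-0.05). Hspa1b, at -0.09, was not called (adjusted p = 0.0630). For Hspa1a the call depended on the test, since r of log2 CPM with Fos was -0.051 (permutation p = 0.267). It also depended on the model. With mouse and library number in the edgeR model, the slope was -0.25 for Hspa1a (adjusted p = 2.21e-05) and -0.21 for Hspa1b (adjusted p = 0.000141). Dnajb1 had -0.13, Rbm3 0.14 and Cirbp 0.04 in that model. With Xist and Y genes added to the numbers, Hspa1a had -0.05 (adjusted p = 0.502).

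With Xist and the Y genes in the model only Rbm3 was called among the 9, by 0.06 ± 0.01 per doubling of Fos (edgeR adjusted p = 2.84e-05, background 48.5%). Within the sets, Rbm3 with Fos had r = 0.184 without and 0.237 with Y counts, against 0.428 over all. Hsph1 with Fos had -0.210 over all libraries but -0.008 and -0.048 within the sets, and Hsp90aa1 -0.254 over all, -0.049 and -0.131 within. Cirbp with Fos had 0.118 over all, and -0.097 and -0.108 within. With the marker scores removed, r with Fos was 0.093 for Rbm3, 0.250 for Hspa1a and 0.210 for Dnajb1.

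Of 17 other immediate early genes tested, 15 were higher and 0 lower with Fos (edgeR, where 69.1% of all genes were called in either direction), with a median r of 0.569, led by Egr1 (r = 0.866), Fosb (0.861) and Junb (0.835). Of the 18 immediate early genes listed, 9 were higher and 3 lower with Hspa1a (limma, background 32.4% higher and 33.9% lower), and the gene most tied to it was Jun, which with Fos makes the AP-1 transcription factor. Jun had r = 0.665 with Hspa1a (limma adjusted p = 5.61e-58), 0.757 without and 0.541 with Y counts. It also had r = 0.521 with Hsph1 and -0.344 with Cirbp. Nr4a1, an orphan nuclear receptor, had r = 0.387 with Hspa1a (0.493 without and 0.404 with Y counts). With Rbm3, 10 of 18 were higher and 5 lower (background 39.7% and 37.5%), led by Klf6 (0.543, but 0.474 without and 0.091 with Y counts) and Junb (0.489).

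The wider heat shock pathway was read from a list of 41 further genes, of which 40 were tested. With Hsph1, 30 of the 40 were higher and 6 lower (limma, background 33% higher and 38.1% lower), with a median r of 0.397 against -0.020 for all genes. With Cirbp, 9 were higher and 27 lower (background 33.5% and 29.4%), with a median r of -0.292 against 0.019. With Rbm3, 11 were higher and 26 lower (background 39.7% and 37.5%, median r -0.307), and with Hspa1a 28 were higher and 4 lower (background 32.4% and 33.9%, median r 0.292).

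Hsp90 and its cochaperones had a positive r to Hsph1 in 8 of 8 (median 0.862) and a negative r to Cirbp in 8 of 8 (median -0.582). Stip1, the adaptor between Hsp70 and Hsp90, had r = 0.931 with Hsph1 (0.938 without and 0.877 with Y counts). Chordc1, an Hsp90 cochaperone whose promoter held the longer repeat, had 0.914, and Ahsa1, which speeds up the Hsp90 ATPase, had 0.893. Among genes whose mean reached 10 CPM, members aside, Ahsa1 also had the most negative r to Cirbp (-0.701, and -0.623 and -0.653 within the sets), followed in the list by Cacybp (-0.692), Stip1 (-0.648) and Hspa4 (-0.631).

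The Hsp40 family was positive with Hsph1 in 7 of 7 (median 0.376), led by Dnaja1 (0.927). The mitochondrial chaperones were positive in 3 of 3 (median 0.660) and had their strongest negative values with Rbm3, at -0.689 for Hspe1 and -0.673 for Hspd1 over all libraries, -0.471 and -0.439 without Y counts and -0.445 and -0.423 with them. The constitutive Hsp90ab1 had r = -0.694 with Rbm3 (-0.440 without and -0.669 with Y counts). The other small heat shock proteins did not follow Hspb1's group, since 1 of 5 had a positive r with Hsph1 (median -0.105). Along mouse number 7 of the 40 rose and 5 fell (edgeR, background 12.1% and 11.8%), and Cryab, a small heat shock protein, rose by 0.12 ± 0.03 per 100 mice (adjusted p = 0.00169).

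**Figure D5:**
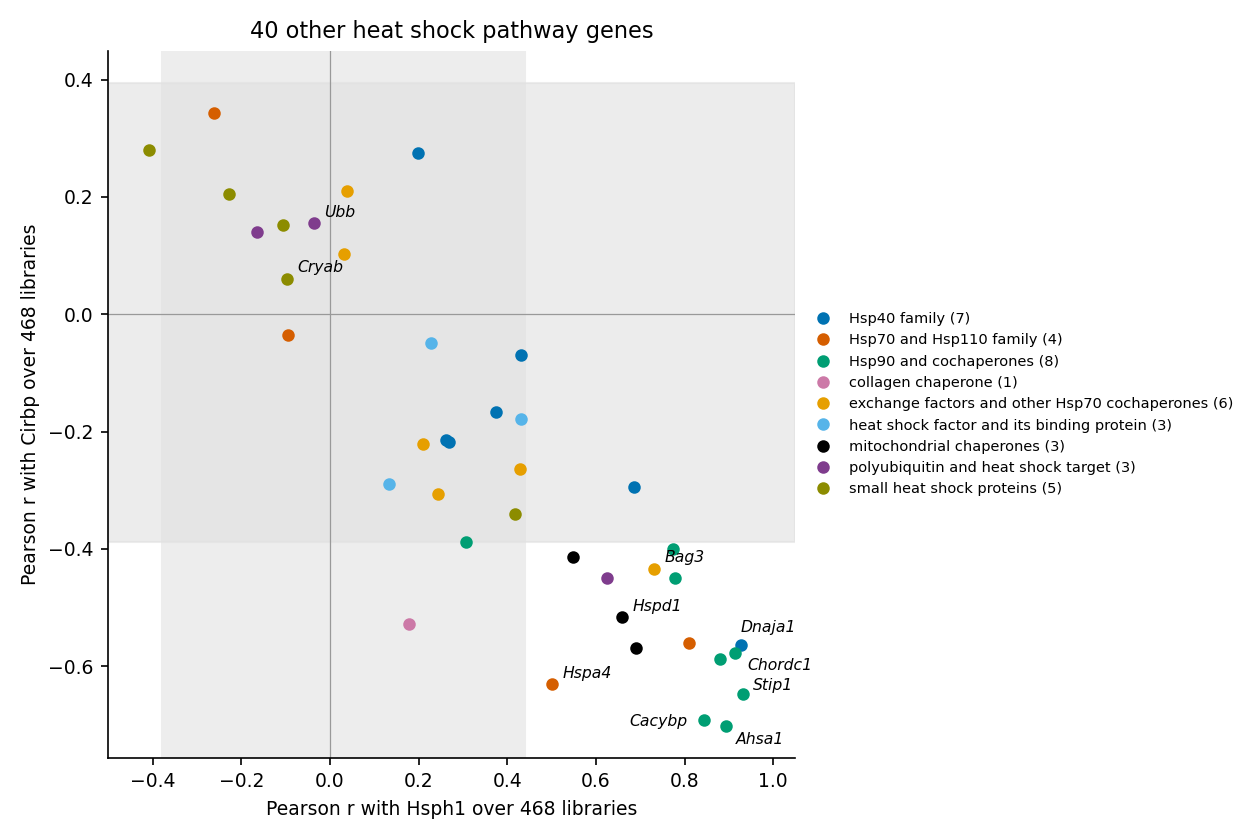
Pearson r with Hsph1 (horizontal) and with Cirbp (vertical) of 40 other heat shock pathway genes over all libraries, coloured by role, with grey bands for the range from the 5th to the 95th percentile of all genes. Stip1, Dnaja1, Chordc1 and Ahsa1 lie at the far right (0.893 to 0.931) and below 0 on the Cirbp axis, and 1 of the 5 small heat shock proteins lies to the right of 0.

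Likeness was also ranked by r over the genes whose mean reached 10 CPM, with the 9 members left out of the ranking. Among these, Hspa1a was most like Dedd2 (r = 0.852), Ccdc117 (0.821) and Dnaja1 (0.802) over all libraries, and Hspa1b and Dnajb1 shared these 3 genes. Hspa8 was most like Stip1 (0.829), Ahsa1 (0.818) and Hsp90ab1 (0.809), and Hsp90aa1 like Stip1 (0.889), Hspa4l (0.873) and Ahsa1 (0.871). Hspb1 was most like Stip1 (0.753), P4ha1 (0.723), a collagen prolyl hydroxylase, and Ahsa1 (0.712). The most negative r was with Nrde2 for Hspa1a (-0.553), Fadd for Hspa1b (-0.541), Spaca6 for Hspa8 (-0.583) and Hspb1 (-0.531), Iffo1 for Hsph1 (-0.607) and Hsp90aa1 (-0.605), and Anapc4 for Dnajb1 (-0.589).

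Cirbp was most like Srsf5, an SR splicing factor (r = 0.761 over all libraries, 0.700 without and 0.786 with Y counts), then Arglu1 (0.686) and 2410002F23Rik (0.650). Rbm3 was most like Snx4, a sorting nexin (0.723), Ostm1 (0.710) and Katnbl1 (0.705), and most unlike Pex6, a peroxisome biogenesis ATPase (-0.766). Cirbp and Rbm3 had no gene in common among these.

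Of 4 splicing genes known to respond to temperature, Srsf5 ran against the heat shock genes (r = -0.506 with Hsph1) and less closely with Rbm3 (0.254) than with Cirbp. The kinases Clk4 and Clk1, which phosphorylate SR proteins, went the other way, with r = 0.472 and 0.355 with Hsph1 and -0.527 and -0.419 with Rbm3. Clk4 with Cirbp had r = -0.060 (limma adjusted p = 0.256), with -0.006 without and 0.333 with Y counts, a difference that was not tested. Srsf2, another SR protein, had r = 0.204 with Cirbp. Among 13 circadian clock genes, 8 were higher and 2 lower with Hsph1 (background 33% and 38.1%). Per2, a clock repressor, had r = 0.578 with Hsph1 (0.610 without and 0.519 with Y counts) and 0.488 with Hspa1a, whereas with Cirbp it had -0.267. Npas2 had r = -0.411 and Dbp 0.318 with Rbm3. The labels give no time of day at which tissue was taken, so its part in these values was not tested.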

How the data were processed

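Expected counts per gene and a DESeq2 variance-stabilised matrix on a log2 scale were deposited by the authors for 468 adipose libraries. Per the study's methods, reads were aligned to founder-strain transcriptomes and divided among strains and similar genes by EMASE and GBRS, which gives fractional expected counts for genes that share reads. The build is GRCm38 by the submitters' processing notes. In the deposited expected counts 66.8% of values were whole (within 1e-06).

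Expected counts were rounded for the count tests. Genes with at least 10 counts in at least 50% of libraries were kept (18380), scaled by TMM and expressed as log2 CPM with a prior count of 2. Mouse and library number (1 fit) and log2 CPM of Fos (another) were tested with edgeR 4.0.16 (quasi-likelihood), Benjamini-Hochberg adjusted over all genes at 0.05. Relations with a member as covariate used limma 3.58.1, and single correlations used 100000 two-sided permutations. DESeq2 1.42.0 and limma on the deposited log2 variance-stabilised values were alternatives, run in R 4.3.3 with Python 3.11.15. The edgeR fit of mouse number was tested on simulated counts with known slopes. P-values measure the spread between libraries, 1 per mouse, and kinship among mice was not modelled. The members and all gene lists were chosen with earlier results of these data known. Genes named beyond the members were the 3 with the highest and the 1 with the lowest r to each member, and up to 4 per list with the largest statistic. The 2 sets by Y chromosome counts (227 libraries without and 241 with them), the 12 blocks and the removal of marker scores were chosen after the data were seen.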

Additional observations from a re-analysis of the deposited data

How the results depend on the processing

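The median r of the heat shock pairs stayed between 0.664 and 0.783, and r of Cirbp with Rbm3 between 0.242 and 0.480, over another prior count, DESeq2 size factors, the deposited log2 values, Spearman's rho, fewer libraries, the sets and removal of numbers, blocks, Xist, Y genes or marker scores. The median of the heat shock by cold-inducible pairs moved to -0.354 with Xist and Y genes removed and lay between -0.497 and -0.354 in all. Members called along mouse number were 3 or 4 and along library number 0 in every alternative, but the members called along mouse number changed. Hspa1a and Hspa1b were called each time. Rbm3 was not called by edgeR with Xist and Y genes in the model (adjusted p = 0.336) or with Fos in it (adjusted p = 0.642). Dnajb1 was called in both of these (adjusted p = 0.000869 and 6.24e-05), and Hsph1 with Fos in the model (adjusted p = 0.0382). Members called with Fos fell from 8 to 1 with Xist and Y genes in the model, with or without the numbers, and were at most 9. Relations to Fos changed sign in several settings. With Xist and Y genes removed, r with Fos was 0.098 for Hspa1a, 0.097 for Hspa1b, 0.040 for Dnajb1 and -0.095 for Cirbp. With marker scores removed it was 0.250 for Hspa1a, 0.241 for Hspa1b, 0.038 for Hspa8, 0.099 for Hsph1, 0.049 for Hsp90aa1, 0.210 for Dnajb1, 0.111 for Hspb1 and -0.072 for Cirbp. With block means, Xist, Y genes and marker scores removed it was 0.121, 0.138, 0.042, 0.081, 0.098, 0.107, 0.137 and -0.030 in the same order. Without Y counts it was 0.113 for Hspa1a, 0.111 for Hspa1b, 0.046 for Dnajb1 and -0.097 for Cirbp, and with Y counts 0.081, 0.081, 0.036 and -0.108. Slopes on Fos given Xist and Y genes were 0.069 for Hspa1a, 0.083 for Hspa1b, 0.0096 for Dnajb1 and -0.033 for Cirbp, and given the numbers as well -0.028 for Cirbp. Slopes on mouse number given Fos were 0.062 for Hsph1 and -0.0083 for Rbm3. The cause was not tested. No paired analysis was possible because all libraries are of 1 group, each from its own mouse. Depth did not limit the 9 members, the lowest of which had a mean of 17.0 CPM, but shared reads limit the Hspa1a and Hspa1b split.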
